A study of Homo sapiens with 5 samples.

Results

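The S100 genes encode small calcium-binding proteins, and the 10 of them described here are S100A2, S100A3, S100A4, S100A6, S100A10, S100A11, S100A13, S100A14, S100A16 and S100P. They were taken by symbol from the 36601 genes of the deposited table, which holds 21 S100 genes in all. Nuclei came from a mixture, in equal numbers, of the human lung adenocarcinoma lines A549, HCC827, H838, H1975 and H2228, which had been grown separately in RPMI medium with fetal calf serum and frozen before nuclei were prepared. No line received a treatment, and no label ties a nucleus to a line. The 10X Multiome protocol reads RNA and open chromatin (ATAC) from 1 nucleus under 1 barcode, and the droplets with the barcoded beads (GEMs) were divided into an 80% and a 20% portion. Each portion gave 1 RNA library and 1 ATAC library, so no difference below carries a test, and nuclei were not treated as replicates.

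An S100 protein folds around a pair of calcium-binding loops (EF hands), usually pairs with a second copy of itself, and acts by gripping other proteins such as annexins, myosin or ezrin when calcium rises. Most of the genes lie side by side on the long arm of chromosome 1, at 1q21, on both sides of the genes for the outer skin layer, while S100P lies on chromosome 4. In lung and other epithelia individual S100 proteins are known as markers of basal cells, of invasive growth or of glandular tumours.

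The 80% table held 6557 nuclei with 95455518 RNA UMIs (unique molecules counted once) and 63920767 ATAC counts in 158342 peaks, and the 20% table held 1286 nuclei with 14346346 UMIs. The labels speak of 16000 nuclei captured and 9700 in total. The 80% nuclei fell into 6 RNA clusters of 329 to 2484 nuclei, which are given by number and by the gene with the largest excess over every other cluster: MALAT1 (cluster 0), ALDH1A1 (1), LDHB (2), HSP90AA1 (3), PVT1 (4) and EGFR (5). The excess is a difference in UMIs per 1000000 and not a ratio. MALAT1 stood at 37978 in cluster 0 and 35178 in the next cluster, and HSP90AA1 at 7822 in cluster 3 and 4894 in the next. ALDH1A1 stood at 5357 in cluster 1 and 210 in the next. These clusters were not named as lines. Leaving all S100 genes out of the clustering moved 6 nuclei. All 6 epithelial markers (EPCAM, KRT8, KRT18, KRT19, CDH1 and CLDN4) were present, and PTPRC, CD3E, LYZ and DCN, which mark immune cells and fibroblasts, had 34, 4, 5 and 3 UMIs, while COL1A1, a collagen of fibroblasts, had 12175 and was highest in cluster 0. CD68 had 2022 and COL1A2 had 569. Of the endothelial markers PECAM1 had 589, CDH5 42 and VWF 21. Of the lung genes NKX2-1 had 3193 UMIs and NAPSA 738, both highest in cluster 5, while the surfactant genes SFTPB and SFTPC had 26 and 6. Barcodes shared by the tables numbered 159, and 385 nuclei were called doublets. The share was smallest in cluster 2 (7 of 1449 nuclei) and largest in cluster 3 (58 of 469), while cluster 0 had the most (200 of 2484). Levels are UMIs per 1000000 UMIs (CPM), pooled over the nuclei of a cluster, with exact 95% Poisson intervals that cover counting error only.

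The members together took 1.04% of all UMIs in the 80% library and 0.944% in the 20% library. S100A6, S100A10 and S100A11 supplied 91.6% of the members' UMIs in the 80% library. Pooled over all nuclei of that library, S100A6 stood at 5238 CPM, S100A10 at 2910 and S100A11 at 1353. S100A4 stood at 243, S100A2 at 232, S100A13 at 193, S100A16 at 115, S100P at 66.6, S100A3 at 18.0 and S100A14 at 3.46. The levels therefore fell into a group of 3 abundant genes and a tail that ended with S100A14, which had 330 UMIs in all. By cluster the summed share was 1.31% of UMIs in cluster 0, 0.984% in cluster 1, 0.677% in cluster 2, 0.939% in cluster 3, 0.888% in cluster 4 and 0.646% in cluster 5. Cluster 0 was 2.02 times cluster 5, and the same clusters were highest and lowest in the 20% library, at 1.17% and 0.602%.

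Over the clusters, 5 of the 10 members had a highest level at least 4 times the lowest, where 33.7% of the 14874 genes with at least 200 UMIs did. These were S100A14 (35.8-fold, against 12.4-fold in the 20% library, 24.9-fold by ATAC clusters and 11.4-fold with nuclei thinned to 1000 UMIs, its lowest cluster having 9 UMIs), S100A4 (10.8-fold), S100A3 (9.14-fold), S100P (5.65-fold) and S100A2 (5.14-fold). S100A10 (2.31-fold), S100A6 (2.15-fold), S100A16 (2.07-fold), S100A11 (1.78-fold) and S100A13 (1.496-fold) had narrower ranges. The median range was 3.72-fold for the members and 2.70-fold for all those genes. The 20% library, whose nuclei were assigned to the clusters without S100 genes, also had 5 of 10 (35.6% of all genes), with the same highest cluster for 9 members and the same lowest for 8. The share of all genes that kept their highest or lowest cluster was not counted, so the 9 and 8 have no background. Grouped by clusters made from ATAC alone, which use no RNA, the nuclei again gave 5 of 10 (32.1% of all genes).

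**Figure D1:**
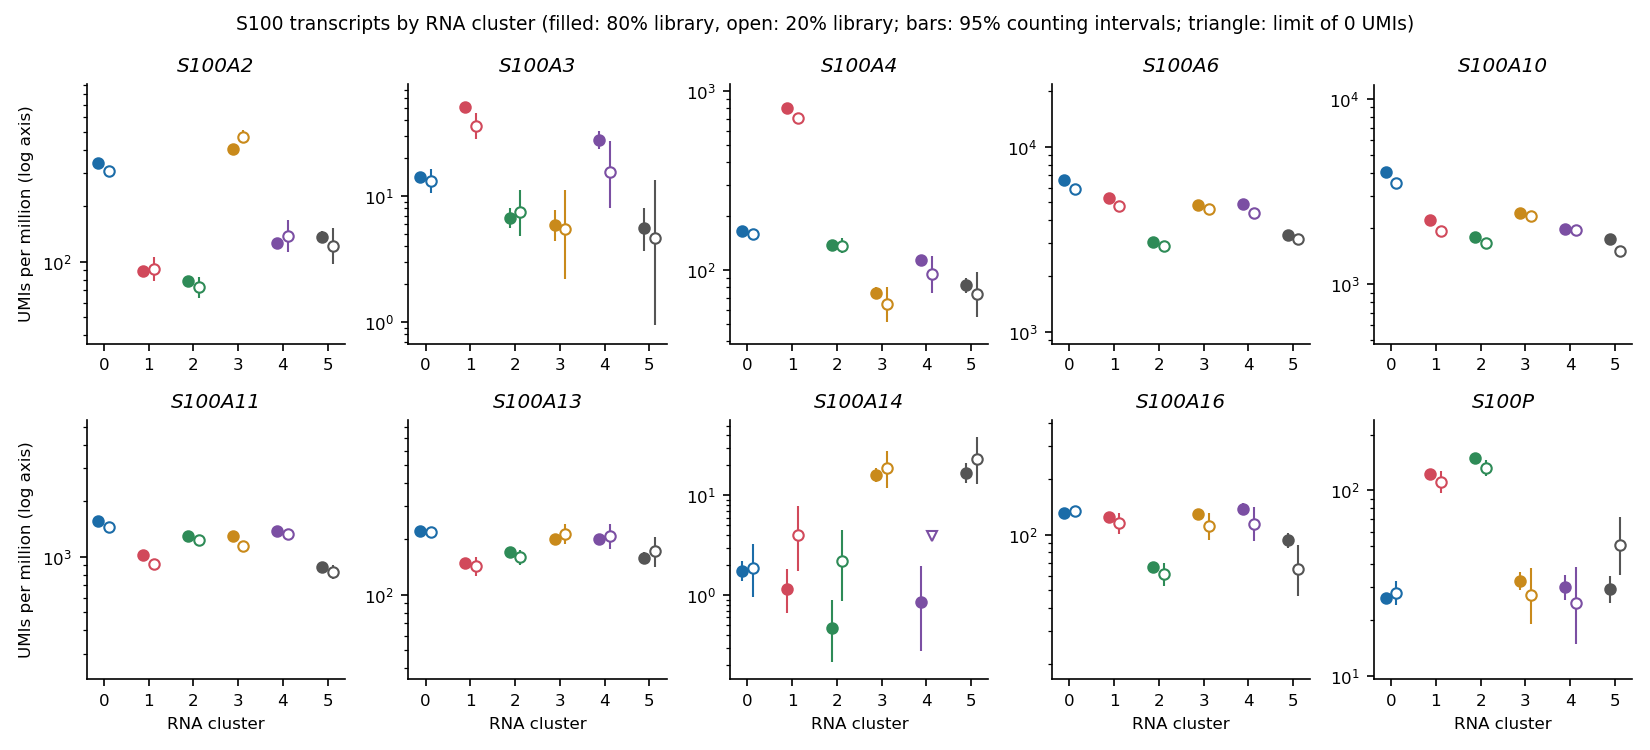
Each panel gives 1 S100 gene, with the RNA cluster on the x axis and CPM on a log y axis whose limits differ between panels. Filled points are the 80% library, open points the 20% library, bars are 95% Poisson intervals and the triangle is the level of 3 counts, drawn where there were 0 UMIs. S100A4 in the 80% library stood at 806 in cluster 1 and at no more than 166 elsewhere, while S100A6 ranged from 3060.2 to 6586 in the 80% library.

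Free RNA in droplets can set a floor under such ranges, as can doublets, which were kept. Free RNA was not measured here, so low levels of genes high in 1 cluster are given for reference. ALDH1A1 and EGFR, each high in 1 cluster, fell to 1.63% and 1.09% of their highest level in their lowest cluster. As a share of the level pooled over all nuclei these lowest values were 8.98% and 11.3%, and the next highest clusters stood at 21.6% and 67.6%. The lowest level of S100A14 was 2.80% of its highest, near those values, whereas the lowest levels of S100A4 (9.23%), S100A3 (10.9%), S100P (17.7%) and S100A2 (19.4%) were further above them. Against the pooled level the lowest was 13.6% for S100A14 and 30.6% to 39.5% for the other 4, so all 5 lay above the lowest values of ALDH1A1 and EGFR but below the next highest cluster of EGFR. For the other 5 members the lowest level was 43.4% to 66.9% of the highest.

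S100A6, also called calcyclin, binds annexins and the calcyclin-binding protein CACYBP. The gene lies at chr1:153534599-153536244 on the minus strand of hg38, and an antisense long non-coding RNA, ENSG00000238279, overlaps it. Its level was 6586 CPM in cluster 0, 5249.9 in cluster 1, 3060.2 in cluster 2, 4815 in cluster 3, 4892 in cluster 4 and 3317 in cluster 5. The 20% library gave 5913, 4759, 2888, 4596, 4386 and 3174 in the same order of clusters. Every nucleus of the 80% library had at least 1 S100A6 UMI. Clusters 3 and 4 had overlapping intervals and changed places between the libraries, and the other neighbours in the order kept it.

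S100A10, also called p11, has lost calcium binding and links annexin A2 to the membrane and to plasminogen. It lies at chr1:151982915-151993859. Its level was 4026 CPM in cluster 0, 2218 in cluster 1, 1803 in cluster 2, 2429 in cluster 3, 1976 in cluster 4 and 1746 in cluster 5, with no neighbours whose intervals overlapped. The 20% levels were 3528, 1930.2, 1671, 2321, 1969.8 and 1509. Cluster 0 stood furthest apart in both libraries, and clusters 1 and 4 changed places between them.

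S100A11 partners annexin A1 and is found in most epithelia. It lies at chr1:152032506-152047907, with the antisense transcript ENSG00000229021 over it. The level was 1558 CPM in cluster 0, 1027 in cluster 1, 1299 in cluster 2, 1286 in cluster 3, 1381 in cluster 4 and 876 in cluster 5. Cluster 0 was highest and cluster 5 lowest in the 20% library too, at 1444 and 828. S100A13, which takes part in the release of growth factors that lack a signal peptide, had the narrowest range of the members, from 148 CPM in cluster 1 to 221 in cluster 0, and from 143 to 219 in the same clusters of the 20% library. Its gene (chr1:153618787-153631360) overlaps S100A1 on the other strand, so reads of the pair could be confused if strand was ignored, and S100A1 had 9 UMIs. S100A16 (chr1:153606886-153613145), a widely expressed member, stood at 131 CPM in cluster 0, 125 in cluster 1, 66.6 in cluster 2, 129.7 in cluster 3, 138 in cluster 4 and 93.0 in cluster 5. It was the member whose highest cluster changed, from cluster 4 in the 80% library to cluster 0 in the 20% library, and the intervals of these clusters overlapped.

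S100A6, S100A10, S100A11 and S100A13 were highest in cluster 0. That cluster also had the largest share of 1q among the clusters once S100 genes and the peaks around them were left out: relative to the mean of the other clusters it stood at 0.22 in RNA and 0.28 in ATAC on the log2 scale, against -0.17 to 0.07 and -0.15 to 0.08 elsewhere. The part of this in the members' levels was not tested.

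S100A4, or metastasin, binds the heavy chain of non-muscle myosin encoded by MYH9 and is best known from motile and invasive cells. Its level was 166 CPM in cluster 0, 806 in cluster 1, 137 in cluster 2, 74.4 in cluster 3, 113 in cluster 4 and 82.1 in cluster 5. Levels of 159, 701, 137, 64.6, 95.04 and 74.0 in the 20% library kept the same order throughout. Cluster 1, led by ALDH1A1, was thus alone at the top and overlapped no other. Of its nuclei, thinned to 1000 UMIs each, 49.5% had an S100A4 UMI, against 5.33% to 14.9% in the other clusters.

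S100A3, a zinc-binding member known from the hair cuticle, shares its strand and much of its position with S100A4: the genes lie at chr1:153547329-153549258 and chr1:153543613-153550136, so reads between them could be split either way. S100A3 had 1721 UMIs. It was also highest in cluster 1, at 50.8 CPM, but its second cluster was not that of S100A4. S100A3 stood at 28.0 in cluster 4, 14.3 in cluster 0, 6.71 in cluster 2, 5.93 in cluster 3 and 5.55 in cluster 5, and the last 3 clusters had overlapping intervals. Cluster 1 was again highest in the 20% library, at 36.1, with cluster 4 at 15.6.

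The 250 bases before the RefSeq starts (GRCh38.p14) of these neighbours are shown because S100A4 has a TATA box and S100A3 does not. Capitals mark TATAA with its first base 20 to 40 bases before the start on the gene's strand. They also mark, on either strand, the AP-1 motif TGANTCA. The GC-box motif GGGCGG is marked on either strand too. The same holds for the CCAAT box.
S100A4, chr1:153545807-153546056, minus strand: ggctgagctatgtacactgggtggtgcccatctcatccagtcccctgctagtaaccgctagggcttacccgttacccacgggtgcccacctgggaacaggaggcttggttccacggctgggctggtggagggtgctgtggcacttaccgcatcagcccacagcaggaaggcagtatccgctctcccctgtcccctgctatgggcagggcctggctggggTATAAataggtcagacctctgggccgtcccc
S100A3, chr1:153549259-153549508, minus strand: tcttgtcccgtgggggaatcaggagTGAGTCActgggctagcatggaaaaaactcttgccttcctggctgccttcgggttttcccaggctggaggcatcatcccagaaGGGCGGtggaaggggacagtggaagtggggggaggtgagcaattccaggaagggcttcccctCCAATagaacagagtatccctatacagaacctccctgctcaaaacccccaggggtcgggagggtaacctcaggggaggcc
Over the whole windows of 250 bases before and 50 after the start, TATAA at that distance was in 4 of the 10 members (S100A4, S100A6, S100A14 and S100P), where 3.91% of 35116 RefSeq windows have it. GGGCGG was in 6 of 10 (45.0% of all windows), TGANTCA in S100A2 and S100A3 (7.71%) and CCAAT in S100A3 and S100A16 (34.6%). S100A2, S100A13 and S100A16 have 2, 3 and 2 RefSeq windows, and the window with most ATAC counts in overlapping peaks was taken. The shares are over all windows without such a choice.

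S100P, first found in placenta and common in glandular tumours, binds ezrin and IQGAP1. It lies apart from the others at chr4:6693878-6697170. Its level was 26.3 CPM in cluster 0, 122 in cluster 1, 149 in cluster 2, 32.5 in cluster 3, 29.99 in cluster 4 and 29.2 in cluster 5. Clusters 1 and 2 were high and the other 4 lay between 26.3 and 32.5, with overlapping intervals for each pair of neighbours in the order. The 20% library gave 111 in cluster 1 and 133 in cluster 2, and 24.7 to 50.9 elsewhere, with the largest of these in cluster 5. Cluster 2, led by LDHB, was therefore the highest for S100P and the lowest for S100A2, S100A6, S100A14 and S100A16. The sequence before its start is shown because the peak over it was highest in the same cluster as the RNA of the 80% library, and a TATAA begins 28 bases before the start. At that peak the intervals of clusters 2 and 1 overlapped.
S100P, chr4:6693628-6693877, plus strand, RefSeq GRCh38.p14: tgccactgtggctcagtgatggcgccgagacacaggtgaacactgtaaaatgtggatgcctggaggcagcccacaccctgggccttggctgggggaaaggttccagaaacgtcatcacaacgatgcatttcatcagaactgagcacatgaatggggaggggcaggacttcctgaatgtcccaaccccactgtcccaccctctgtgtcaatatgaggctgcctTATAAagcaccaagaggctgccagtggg

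S100A14 is known from epithelia, with weak calcium binding. It lies at chr1:153614255-153616986 and was the rarest member. Its level was 16.9 CPM in cluster 5 and 16.005 in cluster 3, and it was 1.77 in cluster 0, 1.151 in cluster 1, 0.847 in cluster 4 and 0.472 in cluster 2. At least 1 UMI was seen in 21.7% of the nuclei of cluster 3 and 17.9% of cluster 5, against 0.621% to 2.50% elsewhere. The 20% library gave 23.1 and 18.7 CPM in clusters 5 and 3, up to 4.02 in clusters 0 to 2 and 0 UMIs in cluster 4, where 3 counts would be 3.91 CPM. Clusters 3 and 5 were also the highest for EPCAM (682 and 762 CPM), CDH1 (196 and 199) and CLDN4 (179 and 184), which hold epithelial cells together, and CDH1 was at 4.72 to 46.2 in the other clusters. Of the other epithelial markers KRT19 was also highest there (1376 and 1543), but KRT8 and KRT18 were highest in cluster 1, at 2841 and 5828.

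S100A2 is a basal epithelial member that p53 and p63 are known to induce. Its level was 341 CPM in cluster 0, 89.1 in cluster 1, 79.0 in cluster 2, 406 in cluster 3, 125 in cluster 4 and 136 in cluster 5. The 20% library gave 308, 91.4, 72.9, 472, 138 and 122. Clusters 3 and 0 were high in both libraries, and clusters 4 and 5 changed places. S100A2 was spread very unevenly over the nuclei of its high clusters. With every nucleus thinned to 5000 UMIs and the 101 shallower nuclei left out, the variance over the mean was 6.48 in cluster 0 and 13.6 in cluster 3, and 1.11 to 1.36 in the others, where a value of 1 is what counting alone gives. The median nucleus of cluster 3 had 0 S100A2 UMIs and the highest had 64, and in cluster 0 these were 1 and 56. In cluster 3 the 46 nuclei with most S100A2, 10% of those thinned, held 67.3% of its UMIs. S100A6, the member with the next largest ratio, had 1.88 to 4.78 over the clusters, and its richest 10% of nuclei held at most 19.9%. The share in the richest nuclei is also large for sparse genes, so it does not show uneven spread by itself. S100P had 61.5% in cluster 3 at a ratio of 1.05, and S100A2 had 45.2% in cluster 1 at a ratio of 1.16.

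**Figure D2:**
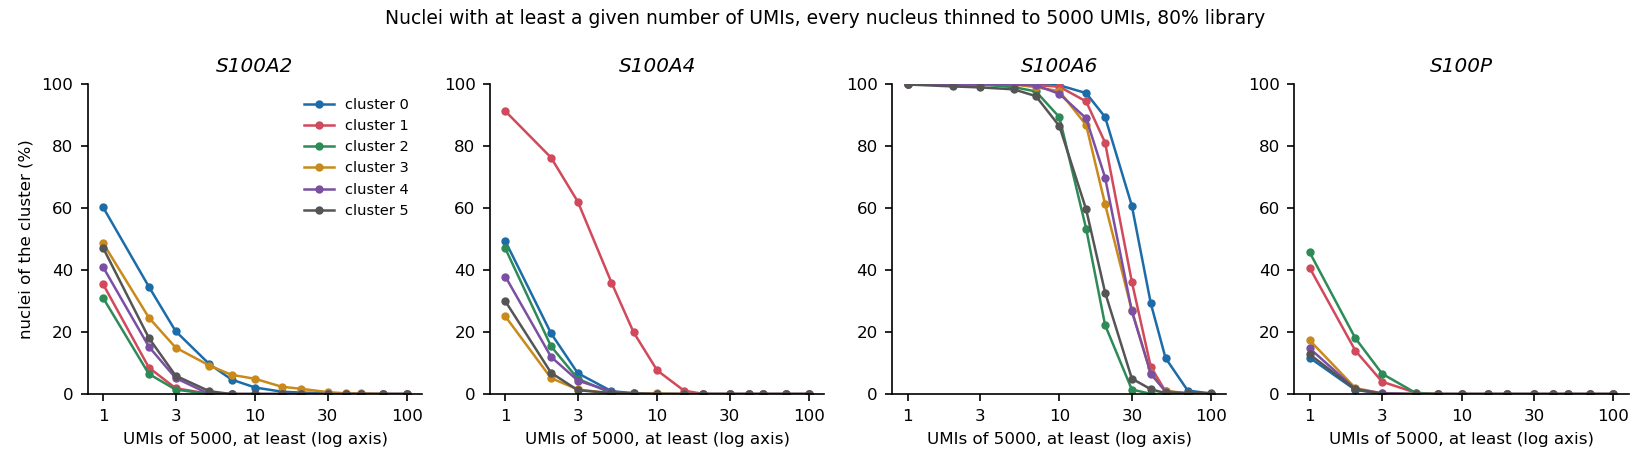
The x axis (log) is a number of UMIs out of 5000 and the y axis the percent of a cluster's nuclei with at least that many, for 4 genes and 6 RNA clusters of the 80% library. The S100A2 curves of clusters 0 and 3 have long tails that reach 2.13% and 4.94% of nuclei at 10 UMIs, whereas the S100A4 curve of cluster 1 and the S100A6 curves are shifted as a whole.

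Nuclei with at least 10 S100A2 UMIs of 5000 numbered 52 in cluster 0 and 23 in cluster 3, and there were none in the other 4 clusters. The limit was chosen after the values were seen and cuts a range, since 115 and 29 nuclei had at least 7 UMIs, and 19 and 11 had at least 15. Of those 75 nuclei 3 were called doublets. By the rule for genes of like pattern, MIR205HG, the host gene of miR-205, was the gene nearest to S100A2 over nuclei within clusters (Pearson r = 0.31, 6557 nuclei). It stood at 474 CPM in the S100A2-high nuclei of cluster 0 and 10.9 in the rest of that cluster. In cluster 3 these values were 269.9 and 13.1, while the gene was at 0.339 to 0.472 CPM in clusters 1, 2 and 4 and at 3.50 in cluster 5. MIR205HG was named for this likeness, so these values are no separate support for it. The 20% library, which the rule did not use, had 11 such nuclei in cluster 0 and 6 in cluster 3, with MIR205HG at 567 and 442 CPM against 13.6 and 17.6 in the rest. S100A6 in the same nuclei of the 80% library was 7765 CPM in cluster 0 and 5586 in cluster 3, against 6554 and 4771 in the rest, and S100A11 was 2281 and 1898 against 1541 and 1253. In the 20% library S100A6 was not higher in the S100A2-high nuclei of either cluster (5730 against 5878, and 4323 against 4601), while S100A11 was 2208 and 1767 against 1419.96 and 1096.

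The accessible sites at S100A2 were next compared with its RNA. The gene (chr1:153561108-153567890, minus strand) has annotated starts at its far end and nearer to its coding part, and 4 peaks lay within 1000 bp of a start. The peak at chr1:153567711-153568174, over the first exon of the transcript that starts furthest upstream, had the widest range of them (11.4-fold, where 55.4% of all peaks with at least 200 counts reached 4-fold). It stood at 9.83 ATAC counts per 1000000 counts in peaks (CPM) in cluster 0, 6.09 in cluster 1, 2.78 in cluster 2, 31.8 in cluster 3, 15.2 in cluster 4 and 25.5 in cluster 5. It was again highest in cluster 3 of the 20% library, at 29.1, with cluster 5 at 25.01 and cluster 2 at 3.81. It was lowest where S100A2 RNA was lowest, but cluster 0, second in RNA, stood below clusters 3, 4 and 5 at this peak. The peak over the nearer start, chr1:153565236-153566057, stood at 30.4, 11.8, 13.2, 28.6, 21.8 and 36.5 CPM in clusters 0 to 5, with clusters 0 and 3 raised as in the RNA but cluster 5 above both, and cluster 4 was highest in the 20% library. Summed over the 4 peaks, cluster 5 was highest (167) and cluster 2 lowest (78.6). Within cluster 0 the far peak was at 36.1 CPM in the S100A2-high nuclei, from 22 counts (counting interval 18.0 to 64.7), and at 9.10 in the rest (7.60 to 10.8). In cluster 3 the intervals of 48.9 CPM (14 counts) and 31.0 overlapped, and in the 20% library 2 counts in cluster 0 and 0 in cluster 3 were too few to compare. The other start peaks were also higher in the S100A2-high nuclei of cluster 0 in the 80% library, but with overlapping intervals. They stood at 55.9 against 29.6 CPM at the nearer start, and at 80.5 against 59.8 and 36.1 against 25.4. In cluster 3 the other start peaks went both ways, also with overlapping intervals.

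Sequence at both starts of S100A2 is shown because both hold TGANTCA, the motif bound by AP-1 (capitals, either strand). It begins 52 bases before the nearer RefSeq start. In the far peak it lies next to the first exon, on its intron side, and the bases shown stop where that exon is reached. Of the 180 peaks in the 1q21 window, 33.3% hold TGANTCA within their central 300 bases.
S100A2 before the nearer start, chr1:153565845-153566094, minus strand, RefSeq GRCh38.p14: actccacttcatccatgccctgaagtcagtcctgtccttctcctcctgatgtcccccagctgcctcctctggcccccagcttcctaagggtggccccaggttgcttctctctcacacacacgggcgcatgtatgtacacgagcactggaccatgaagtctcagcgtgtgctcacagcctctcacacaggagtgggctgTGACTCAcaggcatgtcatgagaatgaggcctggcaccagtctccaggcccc
S100A2 far peak, left part, chr1:153567711-153567843, plus strand, hg38: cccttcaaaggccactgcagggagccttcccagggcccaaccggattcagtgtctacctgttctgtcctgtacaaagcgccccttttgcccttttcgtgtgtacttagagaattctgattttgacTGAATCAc

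**Figure D3:**
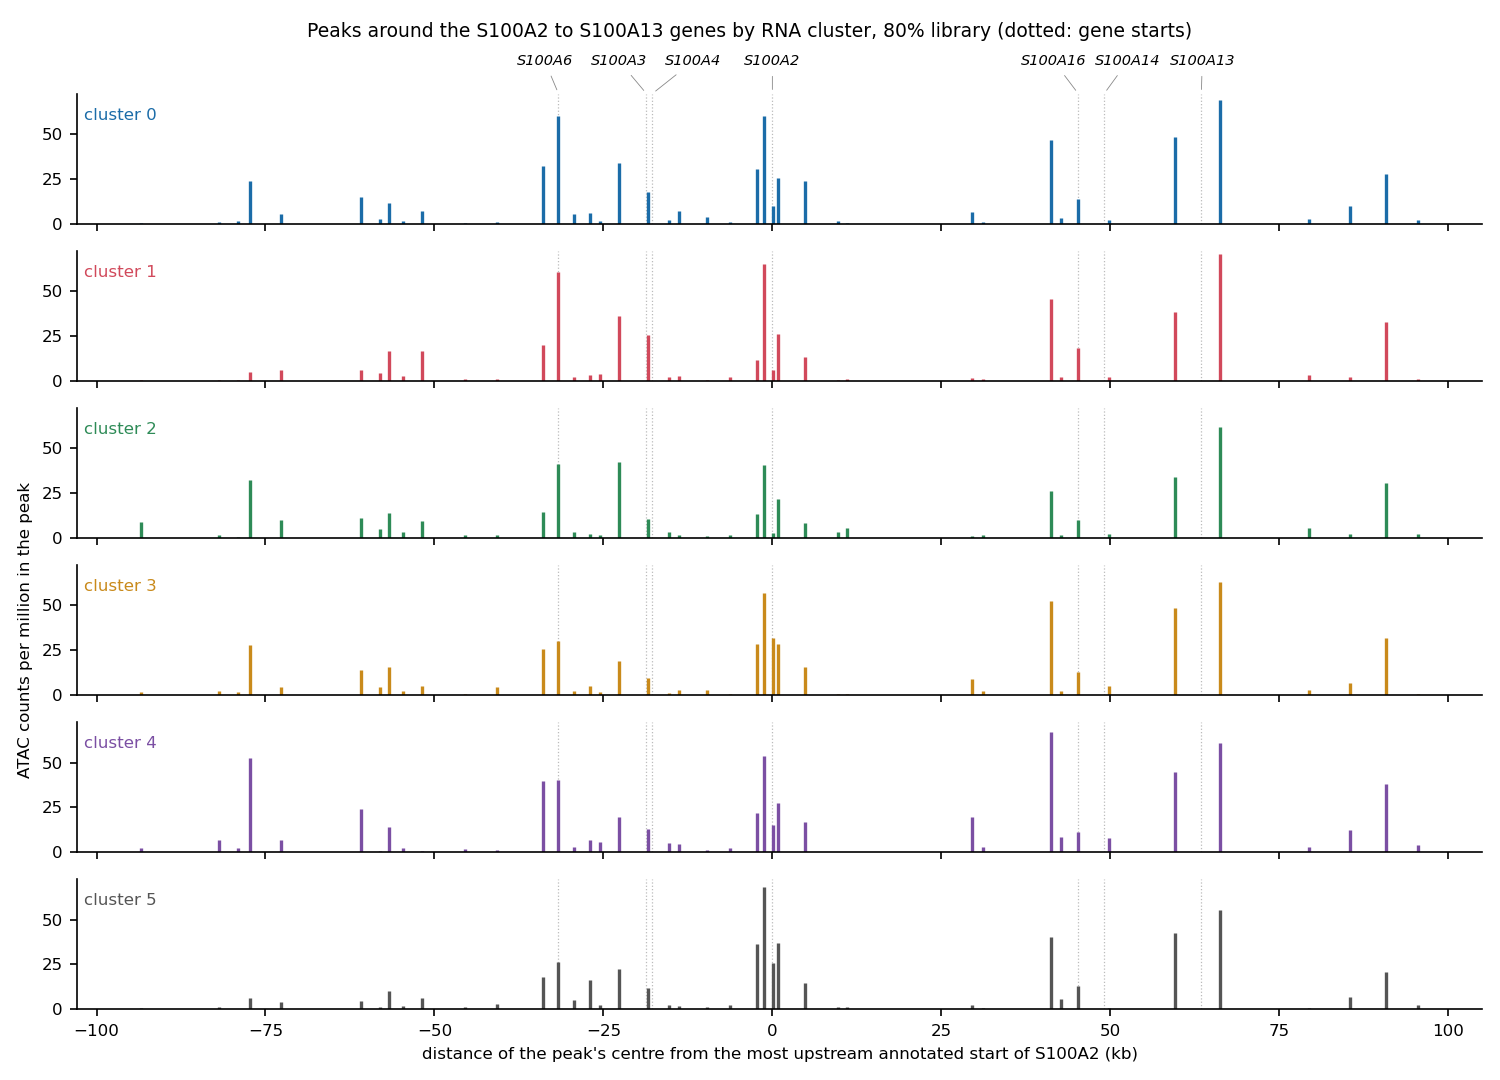
Each row is 1 RNA cluster of the 80% library, and each line is a peak, placed by the distance of its centre from the far start of S100A2 in kb, with its ATAC CPM as height. Dotted lines are starts of the S100 genes. The line at distance 0 is the peak at the far start of S100A2, which ranged from 2.78 in cluster 2 to 31.8 in cluster 3.

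For all members, start peaks were summed by RNA cluster. These are the peaks that overlap the interval of starts given for a gene in the deposited gene table, with 1000 bp added on each side. Peaks between the starts of a gene are therefore included, for the members and for all genes. That table does not hold every annotated start, as given below for S100A11 and S100A13. The comparisons here rest on the starts it holds. ATAC intervals were computed on each count divided by 2, as 90.1% of nonzero ATAC values were even. The cluster with the most RNA was also the highest at the start peaks for 6 of the 10 members in the 80% library. With at least 200 start-peak counts it was so for 6 of 9 members (all but S100A14) and 47.2% of genes. In the 20% library it was so for 2 of 10, or 2 of the 8 with that many counts (39% of genes), and the clusters there held as few as 56 nuclei. Among the matching members of the 80% library, only S100A3 had a highest start-peak cluster whose interval overlapped no other. S100A4 matched only in the sum with the S100A3 start peak, which is counted for both genes. The other S100A4 start peak was highest in cluster 2. S100A6, counted as not matching, stood at 60.8 CPM in cluster 1 and 59.9 in cluster 0, with overlapping intervals. From the cluster with most RNA to that with least, the start peaks were lower for 9 of 10 members in the 80% library, which are the 9 with enough counts, and for 85.6% of genes. The median ratio was 1.65 over the 10 members, 1.86 over the 9 and 1.6 for all genes. The same pairs of clusters gave a ratio above 1 for 9 members in the 20% library, and S100A14 gave none there.

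S100P had the largest ratio at its start peak among the members, 5.43 between the clusters with most and least RNA. The peak stood at 7.82 CPM in cluster 2 and 7.15 in cluster 1 and at 1.02 to 1.77 in the other clusters, from 216 counts in all. In the 20% library, with 57 counts, clusters 1 and 2 were at 14.1 and 4.76 and the others at 0 to 3.64. The clusters with high S100P RNA were the highest here in both libraries, though their order differed, and in the 20% library the interval of cluster 2 overlapped those of the low clusters.

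No called peak overlapped the RefSeq window of S100A4, chr1:153545757-153546056, part of which is shown above. The start peaks of S100A4 lie beside that window and were at 51.6, 61.6, 53.0, 28.1, 32.2 and 34.5 CPM in clusters 0 to 5. Cluster 1 was highest, with cluster 2 next to it, although S100A4 RNA was 137 CPM in cluster 2 and 806 in cluster 1. In the 20% library cluster 2 was the highest of all, at 70.4 against 61.5 in cluster 1. The S100A3 start peak, which lies inside the S100A4 gene and is counted for both, was at 25.3 CPM in cluster 1, 17.5 in cluster 0 and 9.33 to 12.9 in the others, and in the 20% library at 25.2 in cluster 2 and 19.4 in cluster 1. The S100A4 start peak that is not shared, chr1:153544791-153545661, was highest in cluster 2 of both libraries. In the 20% library it stood at 45.2 CPM there and 42.2 in cluster 1. The start peaks of S100A4 were thus highest in clusters 0, 1 and 2 of both libraries, without the single high cluster seen in its RNA, and S100A3 differed between the libraries in cluster 2.

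Among the abundant members the start peak of S100A6 was at 59.9, 60.8, 41.4, 30.4, 40.1 and 26.6 CPM in clusters 0 to 5, so cluster 3 was nearly the least open although its RNA was 4815 CPM. The S100A10 start peaks ranged from 94.1 to 122 CPM, that of S100A11 from 25.1 to 32.5 and that of S100A13 from 34.0 to 48.6. Cluster 0 was highest for S100A10 and S100A11 as in the RNA, but its intervals overlapped those of other clusters. The peak chr1:152047578-152048845 (7182 counts), over the upstream end of S100A11 as placed above, was not summed. It was highest in cluster 1 (120 CPM), with an interval that overlapped cluster 0 (113). For S100A13, peaks with 4252 counts at the RefSeq window chr1:153634312-153634611 were not summed either, and its start peak held 2805. In the 80% library S100A16 was most open in cluster 4 (86.8) and least in cluster 2 (37.2), the same clusters that were highest and lowest in its RNA. The interval of cluster 4 overlapped that of cluster 3. Both ends differed in the 20% library, with cluster 1 highest (85.3, against 78.8 in cluster 4) and cluster 5 lowest (45.9, against 52.4 in cluster 2). The S100A16 start peak chr1:153610411-153610851 had no overlapping peak there.

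S100A14 had a ratio under 1, but its counts did not separate the clusters with most and least RNA. The peak nearest to its start, chr1:153617214-153618071, held 174 counts and stood at 7.87 CPM in cluster 4 (interval 4.45 to 12.9), 5.15 in cluster 3 and 0.511 in cluster 5 (0.0129 to 2.85), where its RNA was highest. In cluster 2, where its RNA was lowest, it stood at 2.25 (1.10 to 4.08), which overlaps cluster 5. This peak was also highest in cluster 4 of the 20% library, at 14.5 CPM, from 37 counts over all clusters. No called peak overlapped the RefSeq window at its start, chr1:153616276-153616575.

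**Figure D4:**
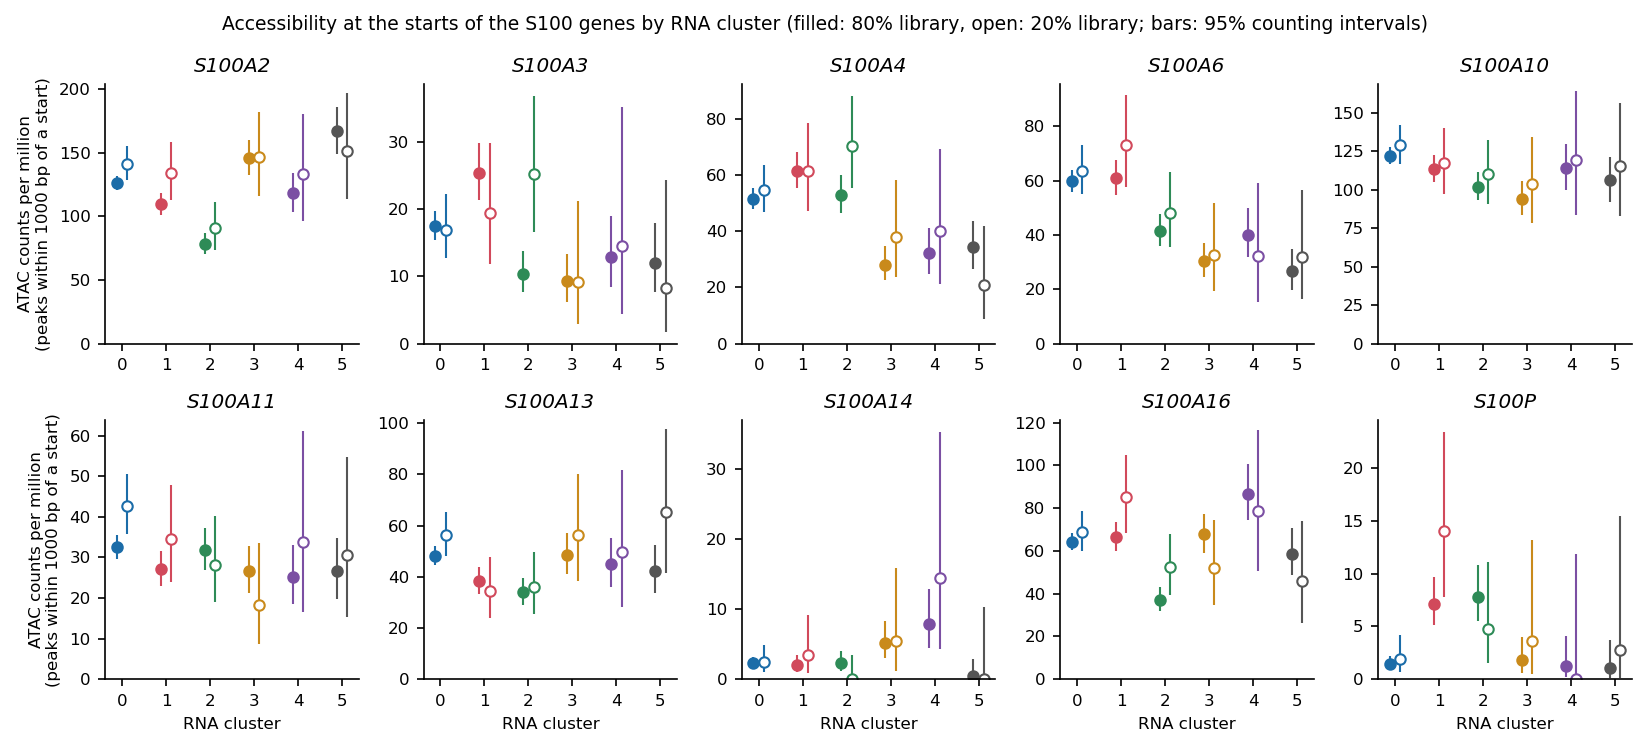
Each panel gives 1 S100 gene, with the RNA cluster on the x axis and ATAC CPM in its start peaks, summed as above, on a linear y axis from 0. Filled points are the 80% library, open points the 20% library and bars 95% counting intervals. S100P is raised in clusters 1 and 2, S100A14 in cluster 4, and S100A10 lies between 94.1 and 122 in the 80% library.

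The stretch of 1q21 that runs from just before S100A10 to just past S100A13 had 180 peaks in the 80% table, 109 of them overlapped by a peak of the 20% table. Of the 84 with at least 200 counts, 37 (44.05%) had a 4-fold range over clusters, below the 55.4% of all peaks of that depth. The median range of the 84 was 3.12-fold, against 4.74-fold over all such peaks. Of the 180 window peaks 16 were start peaks of members, and none of the 6 with the largest excess for a cluster was. For cluster 2 it was chr1:153698831-153699734, with 25.2 CPM against 5.84 in the next cluster and 17.1 against at most 1.94 in the 20% library. For cluster 1 it was chr1:152501398-152502250 between the skin genes, with 22.5 against 9.64, and 18.4 against 3.64 in the 20% library. For cluster 4 it was chr1:153490172-153491094, 45612 bp from the start of S100A6, with 52.3 against 32.5, and 70.7 against 28.6. For cluster 3 it was chr1:151998561-151999455, 5148 bp from the start of S100A10, with 35.5 against 15.3, and 45.4 against 16.7. Cluster 0 had its site in an intron of S100A10 (chr1:151989207-151990142, 29.7 against 22.1), and it was highest there in the 20% library too. Cluster 5 had its site in an intron of S100A5 (chr1:153540506-153541392, 16.1 against 6.60), where cluster 3 was highest in the 20% library. The central 200 bases of the sites of clusters 1 and 2 are shown as examples that hold TGANTCA (capitals) and lie outside genes. Over that length the sites of clusters 0, 1, 2 and 5 hold it and those of clusters 3 and 4 do not, and 25.6% of the window's peaks do.
Cluster 1 site, chr1:152501725-152501924, plus strand, hg38: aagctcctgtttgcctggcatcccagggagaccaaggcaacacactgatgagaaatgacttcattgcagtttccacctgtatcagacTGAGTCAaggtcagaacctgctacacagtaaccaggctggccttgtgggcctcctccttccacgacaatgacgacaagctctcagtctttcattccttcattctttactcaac
Cluster 2 site, chr1:153699183-153699382, plus strand, hg38: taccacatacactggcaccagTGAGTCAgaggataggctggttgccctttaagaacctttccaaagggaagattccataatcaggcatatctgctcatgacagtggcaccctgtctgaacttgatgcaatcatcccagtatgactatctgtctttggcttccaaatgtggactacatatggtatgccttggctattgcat

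Of the 45 pairs of members, 42 had a Pearson r above 0 over nuclei within clusters, and 15 had at least 0.1. Values were log-normalized. Among the members' pairs with all other genes tested, 40.1% and 0.426% did. The library and depth of each nucleus are shared by both genes. The other genes were not matched to the members in abundance, which also affects r. Doublets were kept, and their part in r was not tested. S100A6 and S100A10 had r = 0.50, S100A6 and S100A11 0.40 and S100A10 and S100A11 0.39. S100A6 was nearest to S100A10 among all 14874 genes, and the next after S100A6 for S100A10 was its partner ANXA2 (0.40). TMSB4X, which binds actin monomers, came after S100A11 for S100A6 (0.39), and S100A13 had S100A6, S100A10 and S100A11 as its nearest genes (0.17 to 0.22). S100A4 was nearest to MUC5AC, AGR2 and TPPP3 (0.24 to 0.25), a gel-forming mucin, a disulfide isomerase of secretory cells and a tubulin-binding protein, and all 3 were highest in cluster 1 like S100A4 itself. The values of S100A3, S100A14, S100A16 and S100P with their nearest genes were 0.10 to 0.15, which in counts this sparse is weak. For S100A14 those genes were CLDN7, ST14 and CDH1.

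**Figure D5:**
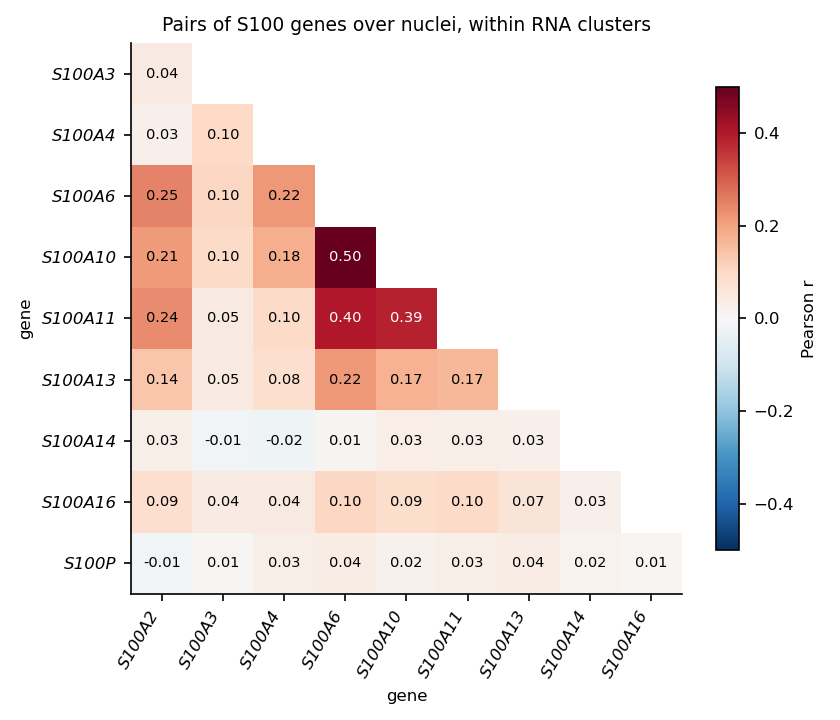
Each square gives the Pearson r of a pair of S100 genes over the 6557 nuclei of the 80% library after the mean of the RNA cluster was subtracted. S100A6, S100A10 and S100A11 form the darkest block (0.39 to 0.50), and S100A14 and S100P are near 0 with all others.

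Nuclei were also split within each cluster. In the 10% of nuclei with the largest share of G2/M transcripts (10 genes such as MKI67 and TOP2A), S100A4, S100A6, S100A10 and S100A11 were lower in all 6 clusters, where 13.1% of genes were, and none was higher in all 6 (5.35% of genes). The mean log2 difference, with 1 CPM added, was -0.45 for S100A4 (-0.75 to -0.29 over clusters), -0.25 for S100A6, -0.20 for S100A10 (up to -0.001 in 1 cluster) and -0.14 for S100A11, against a median of -0.14 over all genes. In pooled CPM S100A4 was 189 in the G2/M-rich nuclei and 249.8 in the others, and S100A6 was 4811 and 5290.1. S100A3, S100A6, S100A10 and S100A13 were lower in all 6 clusters in the 25% of nuclei with most UMIs than in the 25% with fewest (3.25% of genes, and 6.45% were higher), by -0.37, -0.32, -0.23 and -0.38. The median over all genes in the split by UMIs was 0.07. S100A6 and S100A11 were higher in all 6 clusters in the 25% of nuclei with the largest ribosomal protein share (6.29% of genes), by 0.15 and 0.22, and S100A4 was lower (21.8% of genes), by -0.23. The median over all genes in the ribosomal split was -0.21, close to the value of S100A4. With the mitochondrial share no member was higher in every cluster (1.84% of genes) or lower in every cluster (4.43%). The clusters themselves differed in that share, from 0.501% of UMIs in cluster 0 to 1.51% in cluster 5, and its part in the members' levels was not tested.

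Nuclei with and without an ATAC count at a start were compared for RNA of the same gene. Of the 80% nuclei, 41.1% had a count in the S100A2 start peaks, and S100A2 RNA was 283 CPM in them and 189 in the others, but within clusters the mean log2 difference was 0.09 (-0.03 to 0.35). Over the other members the within-cluster means ran from -0.02 for S100P to 0.13 for S100A4 and 0.17 for S100A14, and no member was higher in more than 4 of the 6 clusters. The share of all genes was not counted for this comparison. For every member the nuclei with a start count were deeper, at a median of 14591 against 12505 UMIs for S100A2. The part of depth in these differences was not tested.

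Among the 11 other S100 genes only S100A8 and S100A9, which form the calprotectin of myeloid and stressed epithelial cells, had at least 200 UMIs. S100A9 stood at 76.7 CPM in cluster 0, 63.2 in cluster 2 and 20.2 to 28.0 elsewhere, and S100A8 at 12.6 in cluster 2 and 1.79 to 4.06 elsewhere. The rest had 0 to 51 UMIs. Of 12 known partners 10 were measured well enough, and 2 of them had a 4-fold range (33.7% of all genes): ANXA6, highest in cluster 2 (43.4 CPM), and MYH9, highest in clusters 4 and 3 (524 and 458). S100A4, whose product binds MYH9, was at 113 and 74.4 CPM there. ANXA2, the partner of S100A10, was highest in cluster 0 (2802) and lowest in cluster 2 (1269), as was S100A6. S100A10 was also highest in cluster 0 but lowest in cluster 5. CACYBP, which S100A6 binds, was highest in cluster 2 (323) and lowest in cluster 4 (126). ANXA1 was highest in cluster 1 (2046) and lowest in cluster 2 (629), whereas its partner S100A11 was highest in cluster 0 and lowest in cluster 5. Of the partners of S100P, which was highest in cluster 2, IQGAP1 was highest there (525) and EZR lowest (142). Of the 45 genes of the skin cluster between the members, 1 had 200 UMIs, TCHH, with 7.25 CPM in cluster 0 and 0.812 in cluster 1. Among 9 flanking genes measured well enough, SLC27A3 and NPR1 had a 4-fold range (33.7% of all genes), and the median range was 2.33-fold.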

How the data were processed

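RNA and ATAC counts were measured in nuclei of 5 mixed cell lines. The authors deposited raw counts of UMIs per gene and ATAC counts per peak for each portion, from Cell Ranger ARC 2.0.0 (hg38, per the labels and methods), with cell barcodes already selected and a peak set for each portion. Gene symbols, positions and barcodes in the other deposited columns were used as given. Which annotation was counted is not given in those sources, and tables of both portions together and long-read counts were not used.

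UMIs were log-normalized, and 30 principal components of 2000 variable genes were clustered with Seurat 5.3.0 (R 4.3.3, 20 neighbours, seed 0). The lowest resolution with at least 6 clusters of 1% of nuclei or more was taken. The 6 was chosen after the ATAC clusters (TF-IDF, singular value decomposition, components 2 to 30) were seen to number 6. The ATAC clusters used here were also required to number at least 6, so their count is no separate support for that number. Nuclei of the 20% library took the cluster whose mean profile, without S100 genes, they correlated with best (97.6% of 80% nuclei returned to their own). UMIs were pooled per cluster as CPM. A 4-fold range needs 200 UMIs and uses a floor of 3 counts per cluster. Scrublet (scanpy 1.11.5) marked doublets, which were kept. Gene positions come from GENCODE v44, and the starts used for start peaks from the deposited gene table. Sequences come from RefSeq promoters (10 of 10 members matched) and hg38. Ranges and correlations were tested on simulated data. Named genes were the members, other S100 genes, partners, neighbours on 1q21, the 3 genes nearest to each member, and peaks at starts or with the largest excess per cluster; S100A2-high nuclei were added after values were seen. The members and lists were chosen with earlier results of these data known. With 1 library per portion and kind there are no tests; intervals cover counting error only.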

Additional observations from a re-analysis of the deposited data

How the results depend on the processing

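The count of members with a 4-fold range stayed at 5 under all 12 alternatives (a filter on shallow nuclei, doublets removed, shared barcodes removed, clusters without S100 genes, random seed 1, ATAC clusters, the 20% library, 5 RNA clusters, edgeR 4.0.16 TMM factors, mean CPM per nucleus, thinning to 1000 UMIs, no filter on low counts), and no member changed sides. Dropping the filter on low counts could not change this count, as every member has at least 200 UMIs. The share of all genes with a 4-fold range, 33.7% in the main setting, ran from 31.2% (5 RNA clusters) to 40.6% (no filter on low counts). It was 37.1% with doublets removed, and it was not computed for the mean CPM per nucleus or the thinning. Random seed 1 gave the same range for every member, and clustering without S100 genes moved only 6 nuclei. S100A14 had the least stable range, 11.4-fold to 41.5-fold. The ratio of the summed members between the highest and the lowest cluster, 2.02, left its counting interval under 5 of 11 alternatives: 2.12 with doublets removed, 1.92 by ATAC clusters, 1.95 in the 20% library, 2.13 with TMM factors and 1.97 as a mean per nucleus; the causes were not tested. Members whose highest RNA cluster was also highest at the start peaks numbered 6, and 5 to 7 under 9 of 10 alternatives, but 2 in the 20% library; the cause was not tested. The grouping into 5 RNA clusters, which merges clusters 3 and 4, was chosen after seeing the data. No paired analysis was possible because each portion and kind has 1 library. Depth limits S100A14 (330 UMIs, 174 start-peak counts), S100P start peaks (216 counts) and the smaller clusters of the 20% library most.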
